A study of Mus musculus with 2 samples.

Results

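The mir-181 family of the mouse is a set of 6 microRNA genes in 3 clusters: Mir181a-1 with Mir181b-1 on chromosome 1, Mir181a-2 with Mir181b-2 on chromosome 2, and Mir181c with Mir181d on chromosome 8. The 6 genes were taken by symbol from the 1973 microRNA genes counted in each library, and all 6 were found. The series holds 1 group, the midbrain of embryos of strain B6NCrl at embryonic day 10.5, male and female pooled, from embryos labelled as healthy and with no treatment or engineered allele named. Replicate 1 is a pool of 69 embryos and replicate 2 a pool of 51, and RNA under 30 nt was sequenced from each. The series has no second tissue, stage or treatment, so levels can be described and the pools compared, but no condition was tested. A library of whole midbrain mixes all its cell types, and fewer cells of a type cannot be told apart from less microRNA per cell.

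A microRNA gene is transcribed as a longer RNA that folds into a hairpin, from which the enzymes Drosha and Dicer cut a short duplex. One strand of the duplex, the 5p or the 3p arm, is loaded into an Argonaute protein and guides it to messenger RNAs, mainly by pairing of the seed, bases 2 to 8 of the arm. The mir-181 family is known from developing T lymphocytes, where miR-181a sets the sensitivity of the antigen receptor, and from the nervous system, where miR-181a promoted neuronal and dopaminergic differentiation of cultured human neural stem cells.

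The main arms are shown first because they decide which gene a read can be assigned to. Each is written 5′ to 3′ from the RefSeq table (GRCm38.p6, the same build as mm10), with the seed in capitals. All 6 genes had both arms in that table, 12 entries in all with 10 distinct sequences. The 4 distinct 5p arms were as follows.
miR-181a-5p: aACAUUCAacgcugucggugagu
miR-181b-5p: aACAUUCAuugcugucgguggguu
miR-181c-5p: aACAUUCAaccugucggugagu
miR-181d-5p: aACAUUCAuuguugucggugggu

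These 4 arms share the seed ACAUUCA, and no microRNA outside the family has it in that table. From position 9 on they fall into 2 kinds. Counted from 1 at the 5′ end, miR-181b-5p differs from miR-181d-5p by C12U alone, apart from the last base of miR-181b-5p, which miR-181d-5p lacks. Deleting base 11 (G) of miR-181a-5p gives miR-181c-5p exactly. Between miR-181a-5p and miR-181b-5p the substitutions are A9U, C10U and A21G. Each cluster thus carries 1 gene of the a or c kind and 1 of the b or d kind.

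The 3p arms are shown because they tell the gene copies apart.
miR-181a-1-3p: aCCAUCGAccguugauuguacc
miR-181c-3p: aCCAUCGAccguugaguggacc
miR-181a-2-3p: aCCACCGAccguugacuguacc
miR-181b-1-3p: cUCACUGAacaaugaaugcaa
miR-181b-2-3p: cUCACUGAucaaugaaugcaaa
miR-181d-3p: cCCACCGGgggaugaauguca

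The 3p arms of Mir181a-1 and Mir181c have 1 seed in common, as do those of Mir181b-1 and Mir181b-2. The 3p seeds of Mir181a-2 and Mir181d were found in no other arm of the table.

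The position of each arm among the 2202 annotated microRNA hairpins of GENCODE M21 bears on the counts, because reads that map to several places are not in the gene counts. The arm miR-181a-5p lies in identical form in Mir181a-1 (chr1:137966468-137966490) and Mir181a-2 (chr2:38852741-38852763), both on the plus strand. The arm miR-181b-5p lies in identical form in Mir181b-1 (chr1:137966650-137966673) and Mir181b-2 (chr2:38853845-38853868). A read with exactly these letters cannot be placed at 1 gene. None of the 6 3p arms occurs at another locus, and neither do miR-181c-5p (chr8:84178924-84178945, minus strand) and miR-181d-5p (chr8:84178759-84178781, minus strand). The Mir181c and Mir181d counts can therefore hold both arms. The counts of the other 4 genes can hold 3p arms, and 5p reads that carry a base at a position that differs between the copies. Whether such a base was copied from the gene cannot be told from the counts. Multiply mapped reads numbered 2412710 in replicate 1 and 2775444 in replicate 2, and how many of them come from miR-181a-5p and miR-181b-5p was not analysed here.

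How far a 5p read must reach differs between the pairs. The lines show the stretch that is identical in both copies, in lower case, with the first differing base on either side in capitals.
Mir181a-1: UgaacauucaacgcugucggugaguuuggA
Mir181a-2: GgaacauucaacgcugucggugaguuuggG
Mir181b-1: AucaacauucauugcugucgguggguuG
Mir181b-2: CucaacauucauugcugucgguggguuU

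The identical stretch of the a copies is 28 bases long and runs 4 bases past the 23 bases of the arm. That of the b copies is 26 bases long and ends with the arm itself, so that the first base after the arm already differs, G in Mir181b-1 and U in Mir181b-2. Since the counts are per gene, reads of the arms and of such longer forms cannot be separated.

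By the M21 annotation the clusters lie in different surroundings. Mir181a-1 (ENSMUSG00000065565.1, chr1:137966455-137966541, plus strand) and Mir181b-1 (ENSMUSG00000065458.1, chr1:137966639-137966718) lie in an exon of the long noncoding RNA gene A430106G13Rik and in an intron of Gm4258, both on the same strand, and in an intron of Gm26936 on the other strand. Mir181a-2 (ENSMUSG00000065423.1, chr2:38852735-38852810, plus strand) and Mir181b-2 (ENSMUSG00000065578.1, chr2:38853830-38853918) lie in an intron of Nr6a1, a gene for an orphan nuclear receptor that is transcribed from the other strand. Mir181b-2 also overlaps an exon of Gm44144 on that other strand. Mir181c (ENSMUSG00000065483.1 in the counts, version 2 in M21, chr8:84178873-84178961, minus strand) and Mir181d (ENSMUSG00000076338.1, chr8:84178716-84178787) lie in an intron of Nanos3, which encodes an RNA-binding protein of germ cells, on the same strand. The gap between the members is 97 bases in the a-1/b-1 cluster, 1019 in a-2/b-2 and 85 in c/d.

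The libraries held 3297835 and 3682410 gene-assigned reads, 42.2% and 39.1% of all reads, and multiply mapped reads made up 30.9% and 29.5%. Values in CPM are reads per 1000000 gene-assigned reads. Intervals are at 95% and cover only counting error, since no molecular identifiers tell copies of 1 molecule apart.

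The c/d cluster held most of the family's counted reads, with 49552 reads in replicate 1 and 36550 in replicate 2. These were 1.5% of the gene-assigned reads of replicate 1 (Wilson interval 1.49 to 1.52%) and 0.993% of those of replicate 2 (0.982 to 1.00%), a mean of 1.25% ± 0.361 (SD, n = 2). The a-1/b-1 cluster held 9624 and 9094 reads, 0.269% ± 0.0317 of the gene-assigned reads. The a-2/b-2 cluster held 11776 and 6401 reads, 0.265% ± 0.130. In replicate 1 a-2/b-2 stood above a-1/b-1 and in replicate 2 below it, so their order was not the same in the pools, while c/d stood above both in each. Together the 6 genes held 70952 and 52045 reads, 1.78% ± 0.522 of the gene-assigned reads. The c/d cluster made up 69.8% and 70.2% of this sum, which leaves out the unplaced 5p reads of the other clusters, so this share describes counted reads and not the makeup of the mature family.

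**Figure D1:**
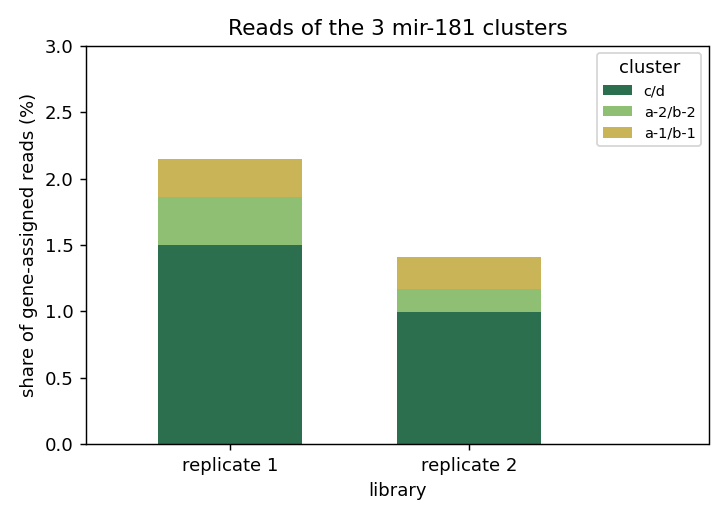
Stacked bars of the share of gene-assigned reads (percent, vertical axis) held by the 3 mir-181 clusters in each of the 2 libraries (horizontal axis). The c/d segment is the tallest in both bars, and the a-2/b-2 segment goes from 0.357% in replicate 1 to 0.174% in replicate 2.

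Mir181c had the most counted reads of the members. It had 27136 reads in replicate 1 (8228 CPM, Wilson interval 8132 to 8327) and 20703 in replicate 2 (5622 CPM, 5546 to 5699). Its mean was 6925 ± 1843 CPM (SD, n = 2). It ranked 28th and 42nd of the 1973 genes. Its neighbour Mir181d had 22416 and 15847 reads, 6797 and 4303 CPM, a mean of 5550 ± 1763 CPM and ranks of 31 and 47. The ranges of the 2 genes overlap, although Mir181c was higher within each library.

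In the a-1/b-1 cluster nearly all reads belonged to Mir181a-1. It had 9463 and 9004 reads, 2869 CPM in replicate 1 (2812 to 2928) and 2445 CPM in replicate 2 (2395 to 2496), a mean of 2657 ± 300 CPM (SD, n = 2), the smallest relative spread in the family at 11.3% of the mean. Mir181b-1, the member with the fewest counted reads, had 161 and 90, or 48.8 CPM (41.8 to 57.0) and 24.4 CPM (19.9 to 30.0). Its mean was 36.6 ± 17.2 CPM, and it ranked 260th and 294th.

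In the a-2/b-2 cluster the b gene was the higher one. Mir181b-2 had 8155 and 4263 reads, 2473 and 1158 CPM, a mean of 1815 ± 930 CPM (SD, n = 2), which is the widest relative spread in the family at 51.2% of the mean. Mir181a-2 had 3621 and 2138 reads, 1098 and 581 CPM, a mean of 839 ± 366 CPM. Both genes had about 2 times the level in replicate 1 that they had in replicate 2.

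**Figure D2:**
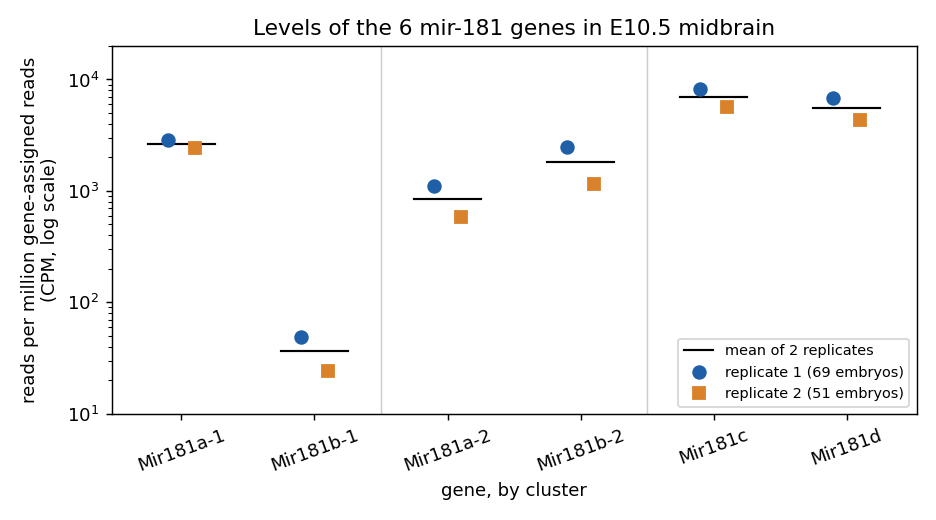
Level of each member in CPM (vertical axis, log scale) by gene and cluster (horizontal axis), with a circle for replicate 1, a square for replicate 2 and a bar for the mean. Replicate 1 lies above replicate 2 in all 6 genes, and Mir181b-1 lies below the others at 48.8 and 24.4 CPM.

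From highest to lowest the order was Mir181c, Mir181d, Mir181a-1, Mir181b-2, Mir181a-2 and Mir181b-1 in both libraries. The lowest value of Mir181d (4303 CPM) was above the highest of Mir181a-1 (2869 CPM), so these neighbours in the order did not overlap. Mir181a-1 and Mir181b-2 overlapped slightly, at 2445 against 2473 CPM. Mir181b-2 and Mir181a-2 were apart (1158 against 1098 CPM), as were Mir181a-2 and Mir181b-1 (581 against 48.8 CPM). With 2 libraries, an exact permutation test of 2 values against 2 cannot give a two-sided p below 0.333, so no test of these differences was run. The reads come from RNA under 30 nt and need not scale with annotated gene length, in which the genes differ. Values per base are given as an alternative. Per base of M21 gene length, Mir181c and Mir181d did not differ beyond their spread, with 77.8 ± 20.7 and 77.1 ± 24.5 CPM per base (SD, n = 2), and Mir181d was the higher of the pair in replicate 1. Per base the others followed in the same order, with means of 30.5 for Mir181a-1, 20.4 for Mir181b-2, 11.0 for Mir181a-2 and 0.458 for Mir181b-1.

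All reads of all 6 genes were in the column taken as the gene's own strand. Opposite-strand reads numbered 0 for the family, which allows a share of up to 0.00423% of its reads in replicate 1 and 0.00576% in replicate 2, from counting error alone.

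Partners of 1 cluster were counted at unequal levels to very different degrees. Mir181a-1 had 58.6 times the reads of Mir181b-1 in replicate 1 (counting interval 50.2 to 68.5) and 99.5 times in replicate 2 (80.9 to 122). Mir181b-2 had 2.25 times (2.17 to 2.34) and 1.99 times (1.89 to 2.10) the reads of Mir181a-2. Mir181c had 1.21 times (1.19 to 1.23) and 1.31 times (1.28 to 1.33) the reads of Mir181d. For comparison, over 107 pairs of adjacent microRNA genes on 1 strand less than 10 kb apart with both genes at a mean CPM of 10 or more, the members of a pair differed by a median of 6.55-fold in reads, with quartiles of 2.50 and 28.4. A gap wider than that of Mir181a-1 and Mir181b-1 was seen in 11 of the 107 pairs, and a gap wider than that of Mir181c and Mir181d in 101.

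In counted reads the b copies were further apart than the a copies. Mir181b-2 had 50.5 times the reads of Mir181b-1 in replicate 1 and 47.1 times in replicate 2. The copies have the same 5p arm, and each has a 3p arm found in exact form at 1 locus only. With 1 mismatch allowed, miR-181b-1-3p was also found in Mir181b-2. Mir181a-1 had 2.61 and 4.21 times the reads of Mir181a-2. On the 3′ side, the b copies differ from the first base after the 5p arm and the a copies only from base 5 after it. The part of read placement in these gaps was not tested. Among the counted genes, 33 pairs of copies numbered -1 and -2 share an identical arm, and 13 of these had both copies at a mean CPM of 10 or more, with a median fold of 2.51 between copies. Of those 13 the Mir181b pair had the widest gap, and the Mir181a pair was sixth. The filter leaves out 20 pairs in which at least 1 copy was lower, and wider gaps occur there, as in Mir194-1 with 0 and 3 reads against 206 and 157 for Mir194-2.

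**Figure D3:**
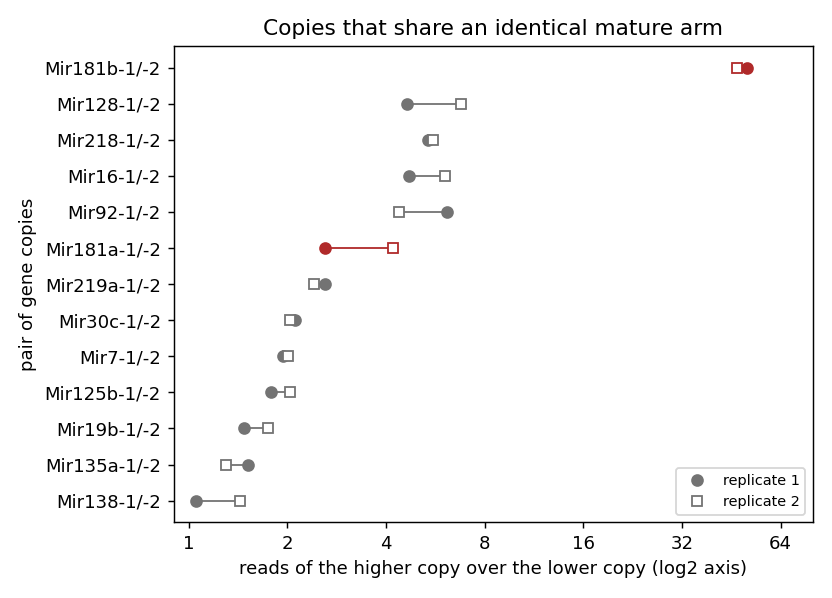
Reads of the higher gene copy over the lower copy (horizontal axis, log2 scale) for 13 pairs of copies that share an identical mature arm (vertical axis), with filled circles for replicate 1, open squares for replicate 2 and the mir-181 pairs in red. The Mir181b pair stands at 50.5 and 47.1, apart from the other pairs, which are below 8.

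Most counted genes share no arm with another locus. Of 916 counted genes with a mature entry, 814 had no arm at another locus, 56 had 1 arm there and 1 not, as Mir181a-1, Mir181b-1, Mir181a-2 and Mir181b-2 do, and in 46 every arm lay elsewhere too. In the class of 56, 66.1% of the genes reached 10 reads in each library, in the class of 46, 15.2%, and in the class of 814, 37.8%. The median level of the genes so detected was 90.0 CPM in the class with 1 shared arm and 179 CPM in the class without. The levels of Mir181a-1, Mir181a-2 and Mir181b-2 were thus above the median of their class, and that of Mir181b-1 was below it.

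All 6 members had a log2 ratio below 0, and so were lower in replicate 2, by unequal amounts; so did 52.7% of the 338 genes of mean CPM 10 or more. A two-sided exact binomial test of the reads between libraries, with TMM scaling from edgeR and Benjamini-Hochberg adjustment over the 485 genes with at least 10 reads in sum, called 6 of 6 members lower in replicate 2. The same test called 26.6% of all tested genes lower and 49.7% in either direction. The largest adjusted p among the members was 4.52e-07, for Mir181b-1. This test compares 2 libraries and not conditions, and with this many reads it passes small differences. By size, 4 of the 6 members were more than 1.5-fold lower in replicate 2, against 8.28% of the same 338 genes. None of the 6 was more than 1.5-fold higher, against 8.88% of the 338. The median log2 ratio of replicate 2 over replicate 1 was -0.78 over the members and -0.03 over those 338 genes, whose log2 ratios had an SD of 0.57 and quartiles of -0.28 and 0.23.

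The a-2/b-2 cluster had the lowest ratio. Mir181b-2 had a log2 ratio of -1.09 (counting interval -1.14 to -1.04), 2.13-fold lower in replicate 2 and the 4th lowest of the 338 genes. Of the 107 most abundant genes, those that averaged at least 1000 CPM, 7.48% were more than 1.5-fold lower, among them Mir181b-2 and Mir181d of the 4 members at this level. More than 2-fold lower were 2 of the 107, Mir181b-2 and Mirlet7i. Mir181a-2 had -0.91 (-0.99 to -0.84), the 12th lowest of the 338. The sum of the cluster in replicate 2 was 0.488 times that in replicate 1 (0.474 to 0.504).

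The c/d cluster was intermediate. Mir181d had a log2 ratio of -0.65 (-0.68 to -0.63) and Mir181c of -0.54 (-0.57 to -0.52), so Mir181d lay just past the 1.5-fold line, at 1.57-fold, and Mir181c just short of it, at 1.46-fold. The ratio of their sum was 0.663 (0.654 to 0.672).

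The a-1/b-1 cluster was split. Mir181a-1 had a log2 ratio of -0.23 (-0.27 to -0.18), 1.17-fold lower, and 104 of the 338 genes had a lower one, which places it between their quartiles. Mir181b-1 had -0.99 (-1.36 to -0.62), with an interval that does not overlap that of its neighbour Mir181a-1. Since Mir181a-1 holds nearly all its reads, the cluster as a whole was at 0.849 (0.825 to 0.874). The counting intervals of the 3 cluster sums do not overlap, but they do not cover the spread between pools, and with 1 library per pool the difference between clusters was not tested beyond counting error.

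**Figure D4:**
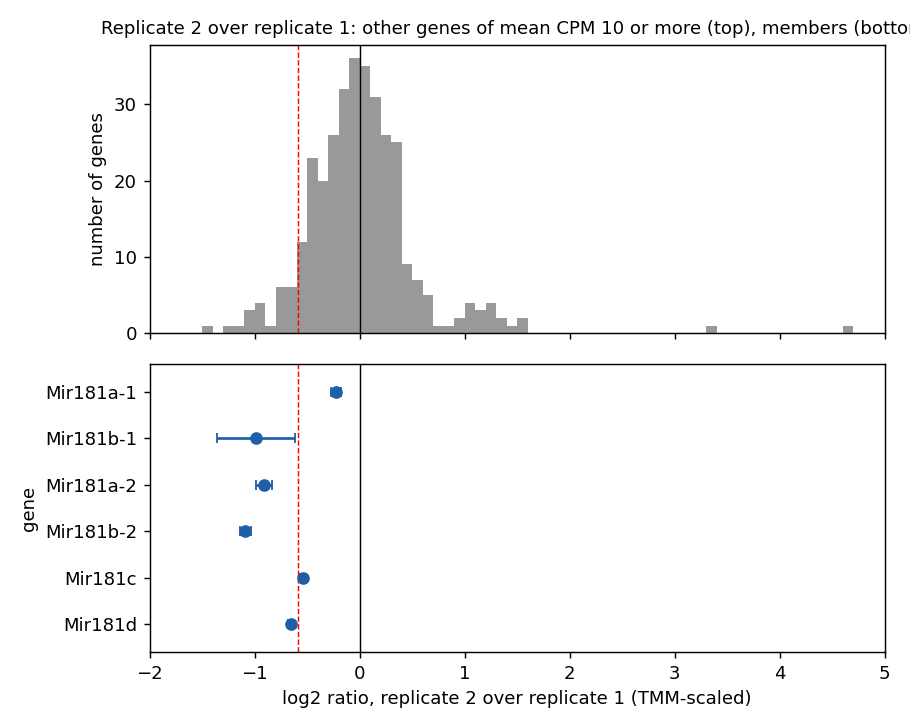
Log2 ratio of replicate 2 over replicate 1 (horizontal axis), as a histogram of the 332 other genes of mean CPM 10 or more (top, number of genes) and for each member with its 95% counting interval (bottom); the dashed red line marks 1.5-fold lower. All 6 members lie left of 0, from -1.09 for Mir181b-2 to -0.23 for Mir181a-1.

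The partners of a cluster had similar log2 ratios in 2 of the 3 clusters. Mir181c and Mir181d differed by 0.11 in their log2 ratios and Mir181b-2 and Mir181a-2 by 0.18, against a median of 0.18 over the 107 neighbour pairs. Mir181a-1 and Mir181b-1 differed by 0.76, and only 2 of the 107 pairs differed by more. The copies compare otherwise: the log2 ratio of Mir181b-1 on chromosome 1 (-0.99) was near that of Mir181b-2 on chromosome 2 (-1.09), while those of Mir181a-1 (-0.23) and Mir181a-2 (-0.91) were apart. Mir181b-1 rests on 161 and 90 reads, and its interval is the widest in the family.

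Genes with 1 arm at another locus had a median log2 ratio of -0.32 (34 genes of mean CPM 10 or more) and those with every arm elsewhere -0.73 (7 genes), against 0.00 for genes with no such arm (262 genes). The part of this in the ratios of the a and b genes was not tested. Mir181c and Mir181d, which have no arm at another locus, stood at -0.54 and -0.65.

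Among other microRNAs of the nervous system more genes were called lower than higher in replicate 2, while their summed share hardly differed. The neural list held 5.55% of the gene-assigned reads in replicate 1 and 5.43% in replicate 2. Of 26 tested genes of a neural list, 16 were called lower by the binomial test and 3 higher, against 26.6% and 23.1% of all tested genes. Of the 26 genes of mean CPM 10 or more, 7 were beyond 1.5-fold lower, against 8.28% of all 338 such genes. The median log2 ratio of these 26 genes was -0.41. The most abundant of them were Mir92b, known from neural progenitors, with 21245 and 25352 CPM and a log2 ratio of 0.26, and Mir149 with 8688 and 7829 CPM and -0.15. Of the mir-9 and mir-124 copies, the classic neurogenic microRNAs, only Mir9-3 (137 and 66.8 CPM, log2 ratio -1.03) and Mir124a-2 (17.0 and 9.78 CPM, -0.78) reached a mean CPM of 10 among 5 counted genes, and both were called lower. The third gene tested, Mir124a-3, did not pass (16 and 34 reads, log2 ratio 0.91, adjusted p = 0.0660 by the exact binomial test), and Mir124a-1 and Mir9-2 had fewer than 10 reads in sum. Multiply mapped reads are outside these counts, and how many of them come from the mir-9 and mir-124 copies was not analysed here. The rows therefore need not give the levels of mature miR-9 and miR-124. The 6 counted neural markers (Mir92b and the mir-9 and mir-124 copies) held 2.14% and 2.54% of the gene-assigned reads, nearly all from Mir92b. None was at 0. The endothelial marker Mir126a held 2.64% and 3.08%, and no counted leukocyte gene was at 0 in the sum of both strands, so these shares do not identify the tissue. The let-7 list, a family that accumulates as tissues differentiate, had 10 of 10 tested genes called lower. The median log2 ratio of its 8 genes of mean CPM 10 or more was -0.70. The list was led by Mirlet7g with 5815 and 2949 CPM (-0.97) and Mirlet7i with 2376 and 1142 CPM (-1.05). The median of the 6 mir-181 genes was close to that of the let-7 list and lower than that of the neural list, a difference that was not tested. Some let-7 copies share an identical arm as well, and their multiply mapped reads are outside these counts. The likeness is therefore one of counted reads.

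Markers of other cell types did not share 1 direction. The leukocyte list is given because lymphoid cells are a known site of mir-181 expression. Its 4 counted genes held 0.128% of the gene-assigned reads in replicate 1 and 0.145% in replicate 2. None was called lower, and 1 of the 4, Mir142b, was called higher (log2 ratio 0.35), against 23.1% of all tested genes. None of these 4 was at 0 in the sum of both strands, and they were led by Mir142b (682 and 865 CPM) and Mir223 (314 and 311 CPM). All reads of Mir142b were in the opposite-strand column, so in the column taken as its own strand it was at 0. Its row therefore need not give the level of Mir142b itself, and the source of its reads was not tested. The endothelial marker Mir126a held 2.64% and 3.08% and was called higher (log2 ratio 0.22). The 3 erythroid genes, led by Mir451a (354 and 295 CPM) and Mir144 (32.1 and 43.7 CPM), held 0.0404% and 0.0374%. Mir451a alone of these 3 was called lower (log2 ratio -0.26), whereas Mir144 (0.45) and Mir486 (17.6 and 34.8 CPM, 0.98) were called higher. Of the mesenchymal genes 6 of 6 were called lower, against 26.6% of all tested genes. Of the 5 that reached a mean CPM of 10, 1 was beyond 1.5-fold lower, against 8.28% of the 338 genes. The median log2 ratio of these 5 was -0.27, between the quartiles of the 338 genes, against -0.78 for the members. The sum of all 6 went from 1.62% to 1.32%, led by Mir143 (8342 and 6509 CPM) and Mir214 (4136 and 3606 CPM). The part of these cell types in the levels of the mir-181 genes was not tested.

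The genes nearest to Mir181c and Mir181d in level, by Euclidean distance of log2 CPM over the 2 libraries, are given as the genes of most similar profile. For Mir181c these were Mir143 (distance 0.21), Mir21a (8545 and 6570 CPM, 0.23) and Mir342 (8247 and 6847 CPM, 0.28). For Mir181d the nearest was Mir135b, with 6306 and 4278 CPM, a distance of 0.11 and a log2 ratio of -0.55, followed by Mir30d (6571 and 5385 CPM, 0.33) and Mir127 (5548 and 4830 CPM, 0.34). The log2 ratios of these 6 genes lay between -0.55 and -0.20, all closer to 0 than that of Mir181d (-0.65), and Mir135b alone was lower than Mir181c (-0.54). With 2 libraries such a likeness says little beyond a similar level.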

How the data were processed

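Raw counts of reads by microRNA gene were deposited by the authors, 1 file per library, aligned to mm10 and counted on GENCODE M4 per the description deposited with them. The aligner and its settings are not stated in any source used here. Unmapped, multiply mapped, unassigned and ambiguous reads stand in 4 rows that name no gene and were left out of library sizes; multiply mapped reads are 30.9% and 29.5% of all reads. Of 3 unnamed count columns the first, the sum of the others, was used; the second was taken as the gene's own strand, which no source states. Of 1973 identifiers, 1894 matched GENCODE M21 without version, used for symbols, coordinates and hairpins, so gene extents may differ from those counted. Mature arms are from RefSeq and were searched on both strands of the M21 hairpins.

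CPM values, means and SDs over 2 replicates and log2 ratios (0.5 added reads, TMM, edgeR 4.0.16) were computed with Python 3.11.15, pandas 2.3.3, scipy 1.17.1, matplotlib 3.10.9 and R 4.3.3. The exact binomial test took genes with at least 10 reads in sum, with Benjamini-Hochberg adjustment at 0.05, and was tested on simulated data. Counting intervals are at 95%, and limits for 0 reads use 3 counts. DESeq2 1.42.0 size factors, total reads, other filters, columns and denominators, gene length and thinning were alternatives. The labels give the replicates as biological, with no further account of how the pools were made. Named were the members, the 3 genes nearest to Mir181c and to Mir181d, and the 2 most abundant genes of each list. Mir194-1, Mir194-2, Mir486, Mir124a-1, Mir124a-3 and Mir9-2 were chosen after their values were seen, as were Mirlet7i beside Mir181b-2 and the surrounding genes. The members and lists were chosen with earlier results of these data known.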

Additional observations from a re-analysis of the deposited data

How the results depend on the processing

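The log2 ratios of the 6 members kept their direction and their side of the binomial threshold in 18 of 18 comparisons (DESeq2 size factors, total reads, and without the most abundant gene). The own-strand column holds the same reads for the members but gives other library sizes, and with it 6 members were again called lower. Adding 5 reads does not enter the test and could not change a call. The count of members called lower was 6 also with other filters and with replicate 2 thinned. DESeq2 size factors moved the log2 ratios by 0.03 at the median, and total reads and leaving out the most abundant gene by 0.00. The member ratio closest to no difference was -0.23. Shifts this small could not change a direction, so the 18 comparisons say little beyond the choice of scaling. With all reads of the library as denominator the shares were 0.110% for a-1/b-1, 0.109% for a-2/b-2, 0.511% for c/d and 0.730% for the family, by construction, and without the most abundant gene a-1/b-1 held 0.308%. Per base of gene length the log2 level ratio was 0.86 for Mir181b-2 over Mir181a-2 (1.08 per gene) and 0.02 for Mir181c over Mir181d (0.33 per gene). The number of genes more than 1.5-fold lower was 28 and higher 30, against 15 and 12 at a mean CPM of 100 or more, where fewer genes are tested, and 65 and 65 among genes with at least 10 reads in sum. Of 12 mature arm entries 8 had no copy at another locus, and 6 with up to 1 mismatch. The arms lost were miR-181b-1-3p, then also found in Mir181b-2, and miR-181d-5p, then also found in Mir181b-1 and Mir181b-2. Leaving out 1 replicate leaves the share of the other, 1.41 to 2.15% for the family, and no ratio between replicates. The search of the whole genome was not run. No paired analysis was possible because there is 1 group. Depth limits Mir181b-1 most, with 90 reads in replicate 2.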
